A study of Mus musculus with 2 samples.

Results

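Interferon-stimulated genes outside the Ifit family were followed in single microglia, the resident macrophages, of the mouse retina. The list held 33 genes of the 31053 in the count tables, and all 33 were present in both tables. It covers known interferon response genes other than the Ifit genes, Isg15, Rsad2 and the chemokines. The measured quantities were the level and detection of each gene in microglia, its level in cells with and without a transcript of Ifit3, and its level in cells without Ifit3 that held many or few of the other 32 genes.

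The study compared retinal cells of C57BL/6 mice in 2 libraries, 1 with a wildtype label and 1 with an Igfbpl1 knockout label (Igfbpl1 encodes a protein like the insulin-like growth factor binding proteins). Both came from saline-perfused mice aged 8 to 10 months whose dissociated retinas were sorted by CD45, which marks leukocytes and, more weakly, microglia, and no other allele or treatment is given for either library. The design text names 10 mice of each genotype, while the labels give neither the number of mice in a library nor the altered allele or the cells it is altered in. Transcripts were tagged at their 3′ end and counted as unique molecular identifiers (UMIs), 1 per captured molecule.

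Type I interferon binds the receptor formed by IFNAR1 and IFNAR2 and, through the kinases JAK1 and TYK2, leads to a complex containing STAT2 and IRF9 that binds interferon-stimulated response elements in the promoters of its target genes. Interferon gamma acts on gamma-activated sites, with Irf1 among the classical targets. The induced proteins sense foreign nucleic acid, block steps of viral replication or limit the signal itself, and some of them are also made at a low level without infection.

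RefSeq promoter windows (GRCm38.p6) were matched by symbol for 25 of the 33 genes, and the 250 bases upstream of the transcription start were searched. A stretch of 100 of these bases is shown for 8 genes. It holds the marked match nearest the start, and for Lgals3bp it is the last 100 bases before the start. The 8 set 5 genes that stood higher in both kinds of interferon-rich cell beside Slfn5, Irf1 and Lgals3bp. Slfn5 reached the limit with Ifit3 alone, and Irf1 and Lgals3bp had smaller differences. All are written 5′ to 3′ in the direction of the gene. Capitals mark matches to the response element core (GAAA, any 2 bases, then GAAA, on either strand) in the first 6 and, in Irf1, a match to the gamma-activated site core TTCNNNGAA. The stretches lie at chr8:71537542-71537641 (minus strand) for Bst2, chr5:120907526-120907625 (minus) for Oas1a, chr8:61927987-61928086 (plus) for Ddx60, chr1:173741810-173741909 (minus) for Ifi207, chr14:59341331-59341430 (minus) for Phf11b, chr11:82951902-82952001 (plus) for Slfn5, chr11:53769879-53769978 (plus) for Irf1 and chr11:118401960-118402059 (minus) for Lgals3bp.
Bst2: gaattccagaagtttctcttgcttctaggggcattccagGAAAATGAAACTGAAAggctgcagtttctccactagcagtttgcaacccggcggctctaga
Oas1a: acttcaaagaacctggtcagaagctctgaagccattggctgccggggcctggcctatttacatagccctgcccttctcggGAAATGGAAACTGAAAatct
Ddx60: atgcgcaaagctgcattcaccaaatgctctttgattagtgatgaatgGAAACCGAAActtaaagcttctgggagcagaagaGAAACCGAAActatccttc
Ifi207: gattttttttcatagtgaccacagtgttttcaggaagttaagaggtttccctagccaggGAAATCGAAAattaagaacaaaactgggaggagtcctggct
Phf11b: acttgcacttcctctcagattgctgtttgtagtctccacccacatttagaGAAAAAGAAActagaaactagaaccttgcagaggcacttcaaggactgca
Slfn5: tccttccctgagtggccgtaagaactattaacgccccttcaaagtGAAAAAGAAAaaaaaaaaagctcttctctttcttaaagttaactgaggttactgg
Irf1: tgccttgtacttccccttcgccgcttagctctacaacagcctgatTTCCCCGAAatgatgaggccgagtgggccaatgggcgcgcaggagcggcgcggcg
Lgals3bp: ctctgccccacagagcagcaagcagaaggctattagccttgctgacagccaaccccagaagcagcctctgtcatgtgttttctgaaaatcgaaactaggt
Bst2 and Oas1a each held 2 overlapping matches to the response element core, and Ddx60 held 2 separate ones. The stretches of Bst2 and Oas1a also each hold 1 match to the gamma-activated site core, which is not marked. In Bst2 this match runs into the first capitals, and in Oas1a it is in lower case. The Lgals3bp window held no match to either core.

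In the 250 bases upstream of the start, 9 of 25 genes (36%) held the response element core, against 3.46% of all 27025 genes in the RefSeq table. They were Stat2, Ddx60, Ifi207, Oas1a, Gbp2, Trim30a, Bst2, Slfn5 and Phf11b. The gamma-activated site core stood in 5 of 25 genes (20%), against 8.13% of all genes. Of 14 matched genes that were higher in both kinds of interferon-rich cell defined below, 8 held the response element core, while 0 of 4 genes with intermediate differences and 0 of 3 genes that reached the limit in rich cells without Ifit3 alone did. The gamma-activated site core stood in 2 of these 14 genes, in 3 of the 4 with intermediate differences and in 0 of the 3. A match gives the letters of the window and does not show binding.

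After filtering, 2695 cells stood in the wildtype-labelled library (median 3910 UMIs) and 1761 in the knockout-labelled library (median 4286), and 1 barcode was shared between them. Igfbpl1 itself went against the labels, with 2 counts in 2735 barcodes of the library labelled wildtype and 29 counts in 1785 barcodes of the library labelled knockout, so groups are named by their labels only. After 3 called doublets had been removed, microglia-like cells numbered 2448 of 2692 (90.9%) and 1504 of 1761 (85.4%). All 10 microglia markers were found in both, among them P2ry12 in 90.5% and 88.7% of the cells and Tmem119 in 88.3% and 88.2%. Of the 8 border macrophage markers 6 were detected in each library and Lyve1 was at 0, and their summed level in microglia-like cells was 12.1 CPM (counts per 1000000 UMIs) under the wildtype label and 33.6 CPM under the knockout label. Of the 7 monocyte markers 5 were detected in each library, Ly6c2 and Chil3 were at 0, and the summed level was 11.7 and 20.5 CPM. There was 1 library per group, so no difference has a replicate check, no test was possible, and the 95% intervals given cover counting error only.

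Ifi27l2a, Bst2 and Ifitm3 had the highest levels of the list in microglia-like cells, on a scale of 1 tag per molecule that is not divided by gene length. Ifi27l2a, a small hydrophobic protein of the interferon-alpha-inducible 27 family, stood at 576 CPM (interval 561 to 591) under the wildtype label and 869 CPM (847 to 892) under the knockout label. Bst2, known as tetherin, which holds budding virus particles at the cell surface, stood at 470 (457 to 484) and 530 CPM (512 to 547). Ifitm3, a membrane protein that blocks the entry of viruses, stood at 317 (306 to 328) and 337 CPM (323 to 351). These 3 genes were well above the rest of the list apart from Lgals3bp, and Ifi44 was the least abundant, at 2.53 and 2.23 CPM.

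Detection was compared after each cell was thinned to 1000 UMIs. Ifi27l2a was then found in 30.4% of microglia-like cells under the wildtype label and 43.4% under the knockout label (53% and 70.9% unthinned). Bst2 was found in 32% and 37.2% (65% and 74.1% unthinned), and Ifitm3 in 17.8% and 22.9% (38% and 47.8%). In sorted retinal neurons and glia (80 and 61 cells, median 4387.5 and 5190 UMIs), which may carry free RNA from lysed cells, the thinned shares were 2.63% and 2.13% for Ifi27l2a, 6.58% and 4.26% for Bst2, and 9.21% and 12.8% for Ifitm3. The levels in microglia-like cells lay above the upper bound of those in neurons and glia for 21 genes of 33 under the wildtype label and 17 under the knockout label. Oasl2, Xaf1 and Cmpk2 were higher in neurons and glia of the knockout-labelled library, at 117, 172 and 59 CPM, than in its microglia-like cells.

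A baseline level was taken as 20 CPM or more in cells without an Ifit3 UMI in both libraries, and 21 of 33 genes reached it. In 9 of these 21 the level in Ifit3-negative cells also lay above the upper bound of that in neurons and glia in both libraries: Ifi204, Samhd1, Trim30a, Bst2, Ifi27l2a, Lgals3bp, Slfn2, Sp100 and Phf11b. Irf1 and Rtp4 lay above it in 1 library. The other 10 (Stat2, Irf7, Irf9, Ddx58, Ifih1, Eif2ak2, Ifitm3, Xaf1, Parp14 and Herc6) lay above it in neither. Whether neurons and glia make these transcripts themselves was not tested. For these 10 the comparison therefore cannot show whether the microglia-like cells made the level or carried it as free RNA. Under 20 CPM in at least 1 library were Usp18, Dhx58, Ddx60, Zbp1, Ifi207, Oasl2, Oas1a, Mx1, Cmpk2, Gbp2, Slfn5 and Ifi44.

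Cells were next divided by Ifit3, an antiviral gene of the Ifit family, into those with 1 or more of its UMIs and those with none. Ifit3-positive cells were 307 of 2448 (12.5%, interval 11.3 to 13.9) under the wildtype label and 233 of 1504 (15.5%, 13.7 to 17.4) under the knockout label. Thinned to 1000 UMIs, the shares were 5.71% and 6.01%. In neurons and glia the thinned shares were 2.63% and 8.51% and the unthinned ones 25% and 29.5%. The level of Ifit3 there was 78.3 and 172 CPM, against 125 and 76.9 CPM in microglia-like cells. Whether neurons and glia make Ifit3 or carry it as free RNA was not tested. A single Ifit3 UMI therefore need not mark a cell that makes the transcript. Positive cells were deeper than negative cells, with median UMI counts of 4581 against 3846 and of 4943 against 4186. Summed over the 33 genes, the level was 7968 CPM in positive and 2227 CPM in negative cells under the wildtype label, and 6579 and 2930 CPM under the knockout label.

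Of 33 genes, 25 reached a ratio of 2 in both libraries, against 1.55% of 11461 genes. The median ratio of the 33 genes was 4.50 under the wildtype label and 2.69 under the knockout label, while over all genes it was 0.998 and 1.00. The ratio was larger under the wildtype label for 33 of 33 genes. The share of all genes with a larger ratio under that label was not counted, and the difference was not tested. Positive cells held a median of 44.8% (range 21.6% to 76%) of a gene's counts under the wildtype label and 38.3% (17.6% to 75%) under the knockout label, in 15.3% and 18.7% of the UMIs. Every gene of the list also had counts in Ifit3-negative cells of both libraries, the fewest being 6 and 5 for Ifi44. Whether such counts came from free RNA or from cells with Ifit3 transcripts that were not captured was not tested. Handling genes, the early response genes that cell dissociation can induce, summed to 16782 CPM in positive against 15834 CPM in negative cells under the wildtype label and 15268 against 14956 CPM under the knockout label. Border macrophage markers summed to 4.63 against 13.5 CPM and to 88.0 against 21 CPM, and their part in the ratios was not tested.

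**Figure D1:**
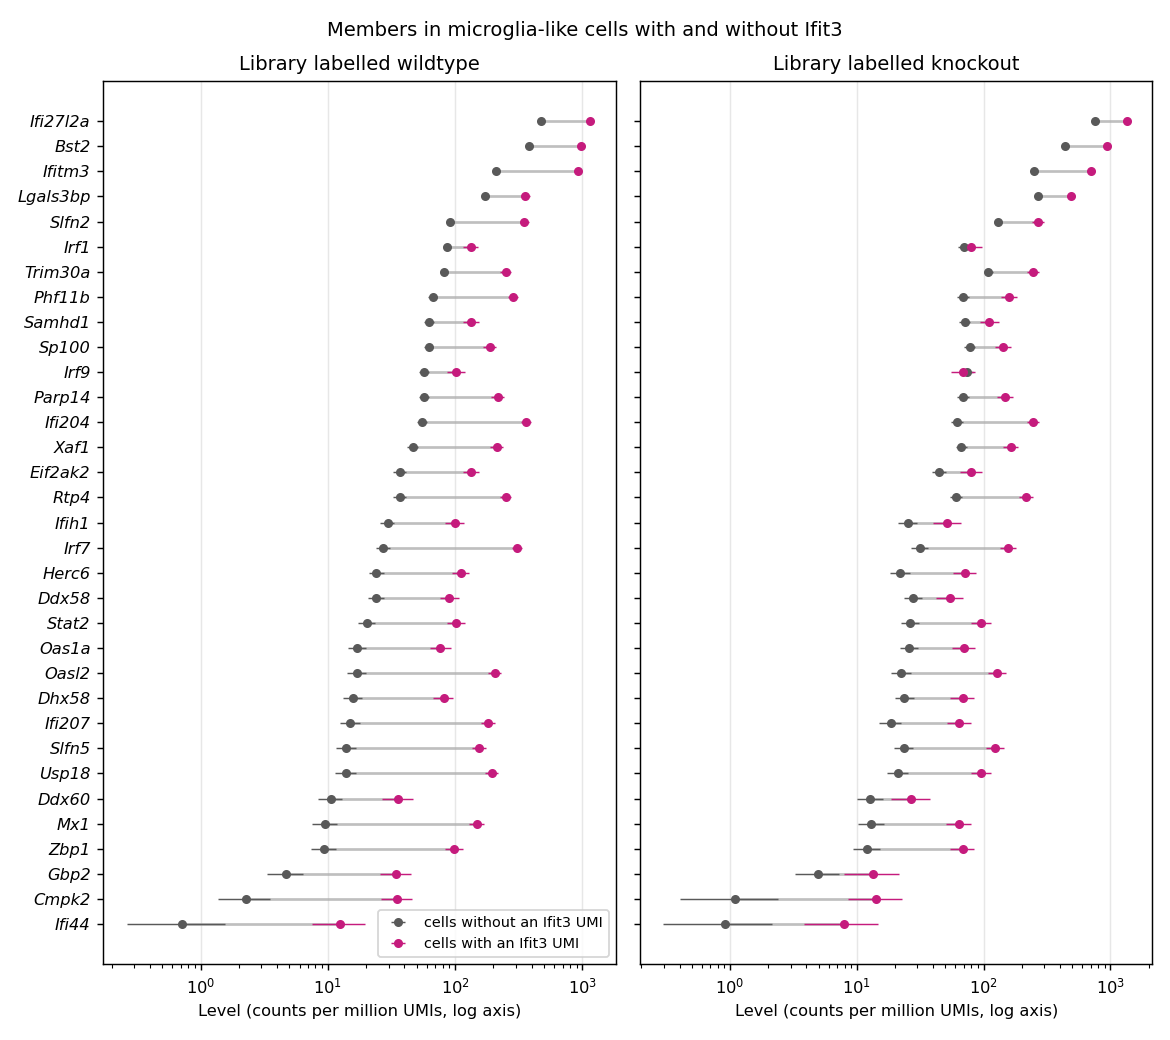
Level of each gene (CPM, log axis) in Ifit3-negative and Ifit3-positive microglia-like cells, 1 panel per library, with bars for the 95% counting interval. The positive cells lie to the right for 33 of 33 genes under the wildtype label and for all except Irf9 under the knockout label.

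The second division took only cells without an Ifit3 UMI and with 2000 UMIs or more, thinned to 2000, of which there were 1697 and 1000. For each gene, cells rich in the other 32 genes were those with a UMI of 6 or more of them (5 or more for Bst2 and Ifi27l2a), and all others were poor. Of 31 genes with enough counts, 25 reached a ratio of 1.5, rich over poor, in both libraries, and the background over 9952 genes was 3.51%. The interval of the ratio lay above 1 in both libraries for 19 of these 25, the others being Stat2, Usp18, Dhx58, Ddx60, Mx1 and Gbp2. The median ratio of the 31 genes was 2.16 and 2.02, while over all genes it was 1.03 in each library. A cell without an Ifit3 UMI can still hold Ifit3 transcripts that were not captured. When cells with a UMI of any of 6 antiviral genes (Ifit1, Ifit2, Ifit3, Ifit3b, Isg15 and Rsad2) were left out, 20 genes still reached the ratio. The share over all genes was not counted in that setting.

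By both divisions, 21 genes reached both limits (background 0.432%), 2 reached that of the Ifit3 division alone (Slfn5 and Herc6, background 0.201%), 4 reached that of the rich cells alone (Irf9, Ifi27l2a, Lgals3bp and Sp100, background 3.07%) and 4 fell between the limits (Irf1, Ddx58, Eif2ak2 and Samhd1). The limits are unequal, 2 and 1.5, and the difference between the divisions was not tested. In the Ifit3 division the interval lay above 1 in both libraries for 31 of 33 genes, among them Ifi27l2a, Lgals3bp and Sp100. None stayed under 1.5 in every library and division, whereas 74.4% of all genes did. Cmpk2 and Ifi44 were too sparse for the second division. The classes are ranges of a ratio, and the least stable genes were Ddx60, in its class in 7 of 14 settings, Ifih1 in 8 and Irf1 in 9.

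**Figure D2:**
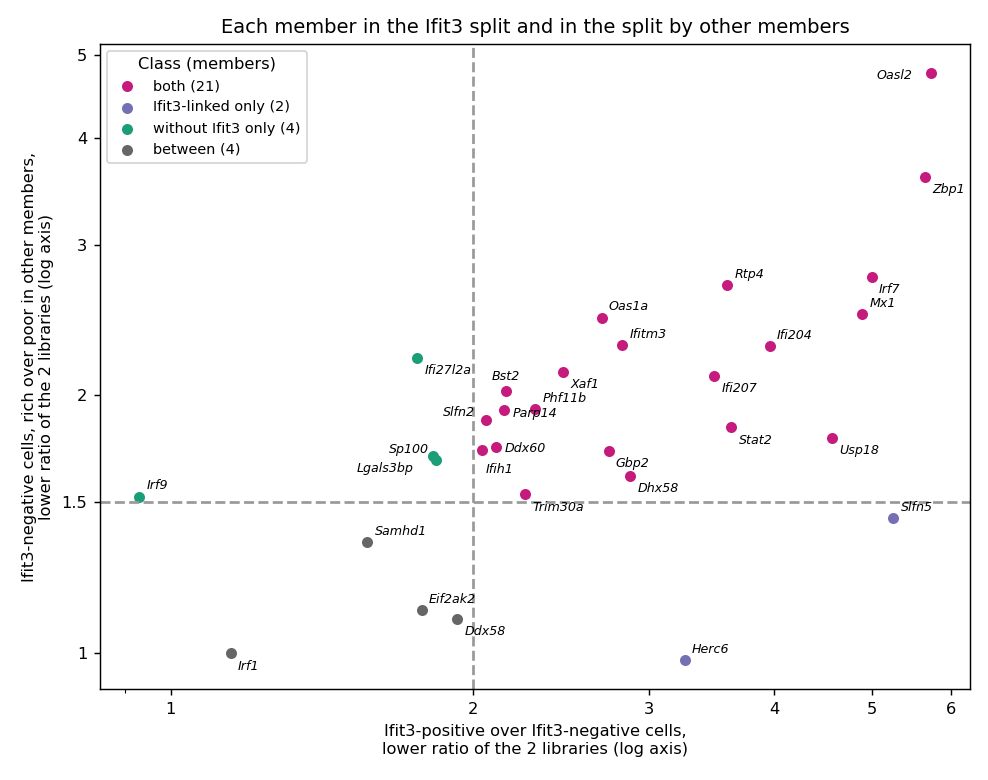
Each of the 31 genes by its ratio between Ifit3-positive and Ifit3-negative cells (horizontal, log axis) and by its ratio between Ifit3-negative cells rich and poor in the other genes (vertical, log axis), the lower of the 2 libraries in each case, with dashed lines at 2 and 1.5. Oasl2 and Zbp1 stand farthest to the upper right, and Irf1 lies near 1 on the vertical axis.

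Among signalling proteins and transcription factors, Irf7, the factor that amplifies interferon gene transcription, had a large ratio in both divisions. It was at 27.2 CPM in negative and 308 CPM in positive cells under the wildtype label (ratio 11.3, interval 9.65 to 13.3) and at 31.2 and 156 CPM under the knockout label (5, 4.05 to 6.18). In Ifit3-negative cells it counted 35.5 per 1000 poor and 182 per 1000 rich cells (ratio 5.14) and 41.5 and 114 (ratio 2.75). Irf7 was thus higher with Ifit3 and also in the cells rich in the other genes without it. Usp18, which removes ISG15 from proteins and dampens the interferon receptor, had ratios of 14 and 4.57 with Ifit3, and Stat2, a subunit of the interferon complex, 4.99 and 3.62.

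Irf9 and Irf1 stood apart from these factors. Irf9, the subunit that gives the interferon complex its DNA sequence preference, was at 56.7 and 102 CPM under the wildtype label (ratio 1.80, interval 1.49 to 2.16) and at 74.2 and 69 CPM under the knockout label (0.930, 0.729 to 1.18). In the rich cells its ratio was 1.80 (1.24 to 2.56) and 1.52 (1.05 to 2.18), so it reached the limit of 1.5 there by a small margin. Irf1, a factor induced by interferon gamma, was at 86.7 and 132 CPM (1.53, 1.30 to 1.79) and at 69.8 and 80.1 CPM (1.15, 0.913 to 1.43). In the other division Irf1 had ratios of 1.00 (0.674 to 1.44) and 1.13 (0.747 to 1.68). Irf1 was thus the factor with the smallest ratios in the rich cells.

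Of 7 nucleic acid sensors, 6 reached the ratio of 2 with Ifit3 in both libraries (background 1.55%). The other, Ddx58, was also higher with Ifit3 in both but missed that limit in 1. Zbp1, which binds left-handed nucleic acids and can start necroptosis, was at 9.31 and 97.9 CPM (ratio 10.5, interval 7.95 to 14) under the wildtype label and at 12.1 and 68.2 CPM (5.66, 4.06 to 7.92) under the knockout label. In the rich cells Zbp1 had ratios of 5.06 (2.01 to 12.2) and 3.60 (1.39 to 9.46). Ifi204 and Ifi207, of the HIN-200 family of nuclear DNA-binding proteins, had ratios of 6.57 and 3.96 and of 12.2 and 3.48 with Ifit3. These 3 genes kept their class in 14 of 14 settings. Of the RIG-I-like helicases, Dhx58 (LGP2) had ratios of 5.17 and 2.87, Ifih1 (MDA5) 3.37 and 2.05, and Ddx58 (RIG-I itself) 3.77 and 1.93, just under the limit. Ddx60, a related helicase, had 3.40 and 2.11.

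Antiviral effectors included Oasl2, Cmpk2 and Mx1, with ratios above 12 under the wildtype label. Oasl2, of the oligoadenylate synthetase family, was at 16.9 and 204 CPM (ratio 12.1, interval 9.86 to 14.8) under the wildtype label and at 22.3 and 128 CPM (5.73, 4.50 to 7.31) under the knockout label. In the rich cells without Ifit3 it had ratios of 6.13 (3.68 to 10.2) and 4.76 (2.63 to 8.74), the highest of the list by the lower library. Cmpk2, a mitochondrial nucleotide kinase, was at 2.27 and 35.1 CPM (15.5, 9.01 to 27.7) and at 1.10 and 14.3 CPM (13, 4.95 to 40.1), at levels near the detection limit. Mx1, a GTPase that blocks virus particles inside the cell, had ratios of 15.5 and 4.89. Common laboratory mouse strains carry a defective Mx1 gene, and the counts here give the transcript only.

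Smaller ratios were found for other effectors. Oas1a, an oligoadenylate synthetase, had 4.50 and 2.69, Gbp2, a guanylate-binding protein, 7.39 and 2.73, and Trim30a, a tripartite motif protein, 3.04 and 2.25. Eif2ak2, the kinase PKR that halts translation on double-stranded RNA, had 3.64 and 1.78. Samhd1, which breaks down deoxynucleotides, was at 62.5 and 133 CPM (2.13, 1.80 to 2.51) and at 70.7 and 111 CPM (1.57, 1.29 to 1.91), and its ratios in the rich cells were 1.43 (0.970 to 2.07) and 1.35 (0.909 to 1.96). Eif2ak2 and Samhd1 passed the limit of 2 under the wildtype label only.

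Of the membrane and secreted proteins, Bst2, Ifi27l2a and Lgals3bp had ratios under 3 with Ifit3 in both libraries, and Ifitm3 and Rtp4 had larger ones. Bst2 was at 380 and 970 CPM (ratio 2.55, interval 2.40 to 2.72) and at 435 and 940 CPM (2.16, 2.01 to 2.32). Ifitm3 was at 208 and 918 CPM (4.41, 4.11 to 4.74) and at 251 and 709 CPM (2.82, 2.59 to 3.07). Ifi27l2a was at 472 and 1148 CPM (2.43, 2.30 to 2.57) under the wildtype label and at 761 and 1340 CPM (1.76, 1.66 to 1.86) under the knockout label. Ifi27l2a was thus abundant in cells without Ifit3, and there it differed between rich and poor cells by 2.74 (2.44 to 3.06) and 2.21 (2 to 2.45). It was also a leading gene of a microglia-like cluster of low UMI count (345 and 253 cells) led by mitochondrial and ribosomal genes. Lgals3bp, a secreted glycoprotein that binds galectins, was at 173 and 356 CPM (2.06, 1.86 to 2.28) and at 268 and 489 CPM (1.83, 1.66 to 2.01), with ratios in the rich cells of 1.70 (1.35 to 2.12) and 1.83 (1.5 to 2.21). Rtp4, a chaperone for membrane receptors, had 6.81 and 3.59 with Ifit3 and, in the rich cells, 4.37 (3.05 to 6.22) and 2.69 (1.85 to 3.88).

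The remaining genes held both that reached the limit in the Ifit3 division alone. Slfn5, of the Schlafen family, was at 14 and 154 CPM (ratio 11, interval 8.81 to 13.9) and at 23.4 and 123 CPM (5.26, 4.13 to 6.70), and in the rich cells it had ratios of 1.44 (0.580 to 3.12) and 2.04 (1.05 to 3.87). Herc6, a ligase that attaches ISG15 in mice, was at 24.1 and 111 CPM (4.61, 3.74 to 5.69) and at 21.9 and 71.4 CPM (3.26, 2.45 to 4.32), with 0.982 (0.431 to 1.97) and 1.53 (0.727 to 3.05). Their intervals in the rich cells are wide and reach above 1.5, so the depth cannot show that they were even there. Sp100, a component of nuclear bodies, was at 61.9 and 187 CPM (3.02, 2.61 to 3.50) and at 77.6 and 143 CPM (1.84, 1.54 to 2.19), with 2.03 (1.43 to 2.83) and 1.68 (1.18 to 2.35). Slfn2 had 3.81 and 2.06 with Ifit3, Parp14, an ADP-ribosyltransferase, 3.81 and 2.15, Phf11b, a zinc finger protein, 4.28 and 2.31, and Xaf1, which binds the apoptosis inhibitor XIAP, 4.57 and 2.46. Ifi44, an interferon-induced protein, was at 0.716 and 12.6 CPM (17.6, 6.74 to 53.7) and at 0.913 and 7.93 CPM (8.68, 2.70 to 32.4). Several genes of the list have close relatives (Oas1a, Ifi204 and Ifi207, Phf11b, the Schlafen, Gbp and Trim30 genes), and how reads shared between relatives were counted is not given in the sources used here.

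The number of Ifit3 UMIs in a cell separated the genes further. Cells with 5 or more were 59 of the 307 positive cells under the wildtype label (19.2%, interval 15 to 24.1) and 25 of 233 under the knockout label (10.7%, 7.07 to 15.4). Irf7 stood at 102, 237 and 851 CPM in wildtype-labelled cells with 1, 2 to 4 and 5 or more Ifit3 UMIs, and at 101, 194 and 350 CPM in knockout-labelled ones. Ifi27l2a stood at 989, 1345 and 1302 CPM and at 1249, 1262 and 2064 CPM. Irf9 stood at 86.9, 122 and 114 CPM and at 72.1, 66.4 and 59.6 CPM. Irf7 was thus higher in each step of Ifit3 counts in both libraries, and Irf9 was not.

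**Figure D3:**
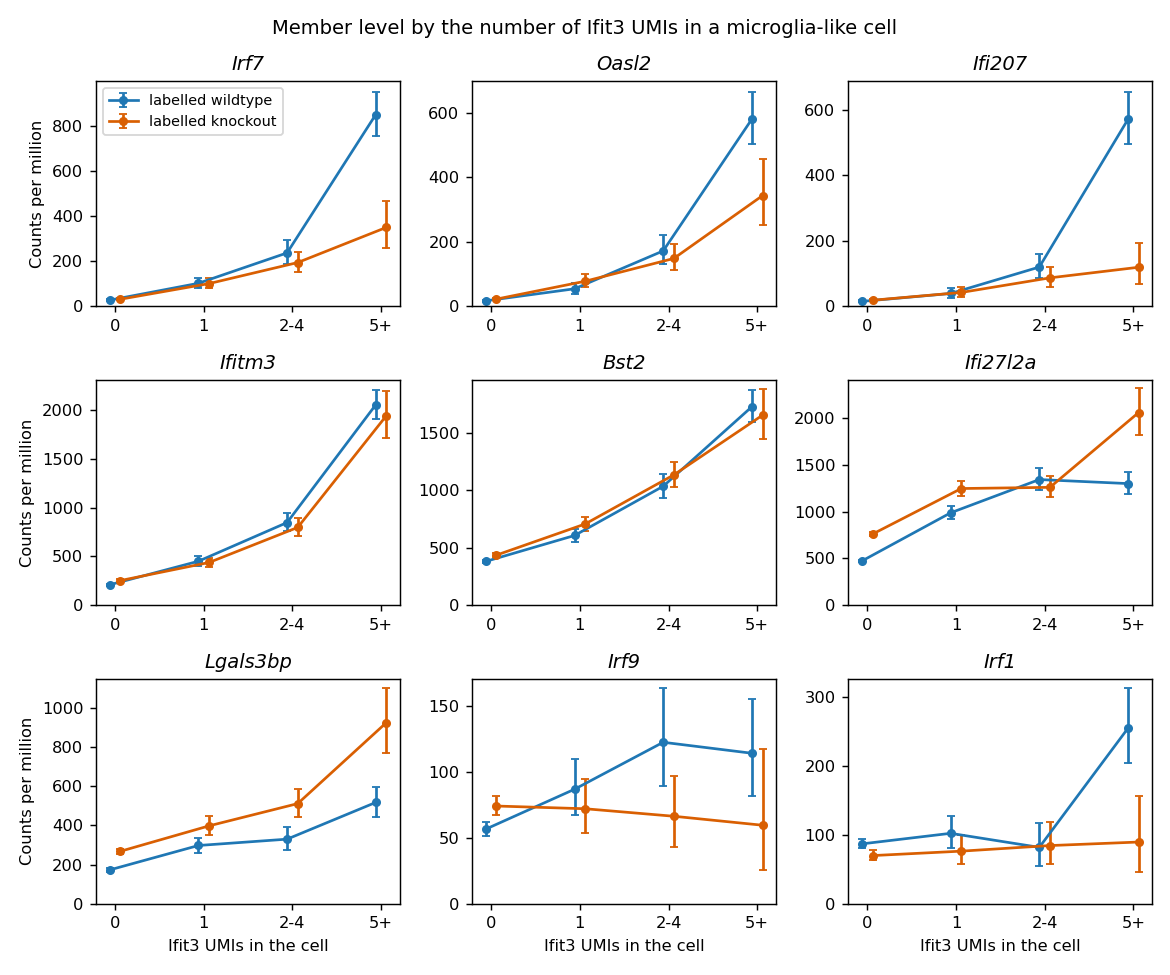
Level (CPM, linear axis from 0) of 9 genes in microglia-like cells with 0, 1, 2 to 4 and 5 or more Ifit3 UMIs, for each library, with 95% counting intervals. Irf7 reaches 851 CPM in the wildtype-labelled cells with the most Ifit3 UMIs and 350 CPM in the knockout-labelled ones, while Lgals3bp is higher under the knockout label in every step.

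Between the libraries, over all microglia-like cells, the ratios of the list lay on both sides of 1. Of 29 genes with 20 CPM or more in 1 library, 2 reached a ratio of 1.5, knockout label over wildtype label (background 0.674%), and 0 were lower by that factor (background 0.866%). The median log2 ratio was 0.09, and over all genes it was -0.03. Lgals3bp was at 201 CPM (interval 192 to 210) and 309 CPM (296 to 323), a ratio of 1.54 (1.45 to 1.64), and Ifi27l2a had a ratio of 1.51 (1.46 to 1.57). Ratios lay above 1 for 16 genes and below 1 for 13, with an interval that excluded 1 for 13 and 8 of them. The share of all genes with such an interval was not counted. Both called ratios are close to the limit: without the cluster led by Spp1 and Fabp5 (27 and 36 cells) that of Lgals3bp was 1.49, and without the clusters of low UMI count that of Ifi27l2a was 1.47.

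Oas1a and Rtp4 had the next highest library ratios. Oas1a was at 26.2 CPM (23.1 to 29.6) and 34.2 CPM (29.9 to 38.9), a ratio of 1.30, and Rtp4 at 69.3 CPM (64.2 to 74.7) and 89.5 CPM (82.5 to 97.0), a ratio of 1.29. At the lower end stood Ifi207, at 40.4 CPM (36.6 to 44.6) and 27.0 CPM (23.2 to 31.2), a ratio of 0.668. Mx1 was at 30.6 and 22.4 CPM (0.732), Ifih1 at 40.1 and 30.1 CPM (0.751) and Irf1 at 93.7 and 71.7 CPM (0.765). Without the cluster led by Ifit3 and Cxcl10 (76 and 36 cells) 5 genes reached 1.5 (Ifi27l2a, Lgals3bp, Oas1a, Rtp4 and Slfn5), and the ratios of Ifi207 and Mx1 turned to 1.07 and 1.20. Without the cluster led by Spp1 and Fabp5, Ifi207 was the 1 gene lower by that factor, at 0.573. In neither setting was the share over all genes counted.

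The library ratio differed with the Ifit3 state of the cells. Within Ifit3-positive cells, 30 of 32 counted genes were below 1 and 13 were lower by 1.5 or more (background 6.97%), and 0 were higher by that factor (background 4.42%). Their median ratio was 0.690, against 0.972 over all genes, and Ifi27l2a (1.17) and Lgals3bp (1.37) were the 2 genes above 1. Within Ifit3-negative cells, 29 of 33 genes were above 1 with no minimum level, with a median of 1.25. Among genes at 20 CPM or more in 1 library, 7 were higher by 1.5 or more (background 0.787%) and 0 lower by that factor (background 0.867%), but Dhx58, Oas1a, Slfn5 and Usp18 reached 20 CPM under the knockout label only, where they were higher, and the others were Ifi27l2a, Lgals3bp and Rtp4. With 20 CPM required of the mean over both libraries, a minimum chosen after seeing the data, 4 were higher by 1.5 or more (Oas1a, Lgals3bp, Ifi27l2a and Rtp4, background 0.533%) and 0 lower (background 0.699%), and in positive cells 13 were lower (background 5.45%). Usp18, for example, was at 193 and 96 CPM in positive cells and at 13.8 and 21 CPM in negative cells, so its order between the libraries was opposite. When the cluster led by Ifit3 and Cxcl10 was left out, positive cells numbered 251 and 208, 0 genes were lower by 1.5 or more (background 7.82%) and the median was 0.933.

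The lower values under the knockout label lay in the cells with the most Ifit3. In cells with 1 Ifit3 UMI (174 and 133) the median library ratio of the list was 1.08, and with 2 to 4 UMIs (74 and 75) it was 0.971. With 5 or more (59 and 25) it was 0.594, and 20 of 33 genes were lower by 1.5 or more (background 16.7%). In the same step 3 genes were higher by 1.5 or more (background 22.5%). Cells of this step were 2.41% (interval 1.84 to 3.1) of microglia-like cells under the wildtype label. Under the knockout label they were 1.66% (1.08 to 2.44), and the intervals overlap. The step has no upper bound, and whether Ifit3 counts per cell within it were alike in both libraries was not tested. The list was thus mostly lower under the knockout label within this step, without matching for Ifit3. The difference between positive and negative cells was not tested, and library and genotype label cannot be told apart.

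**Figure D4:**
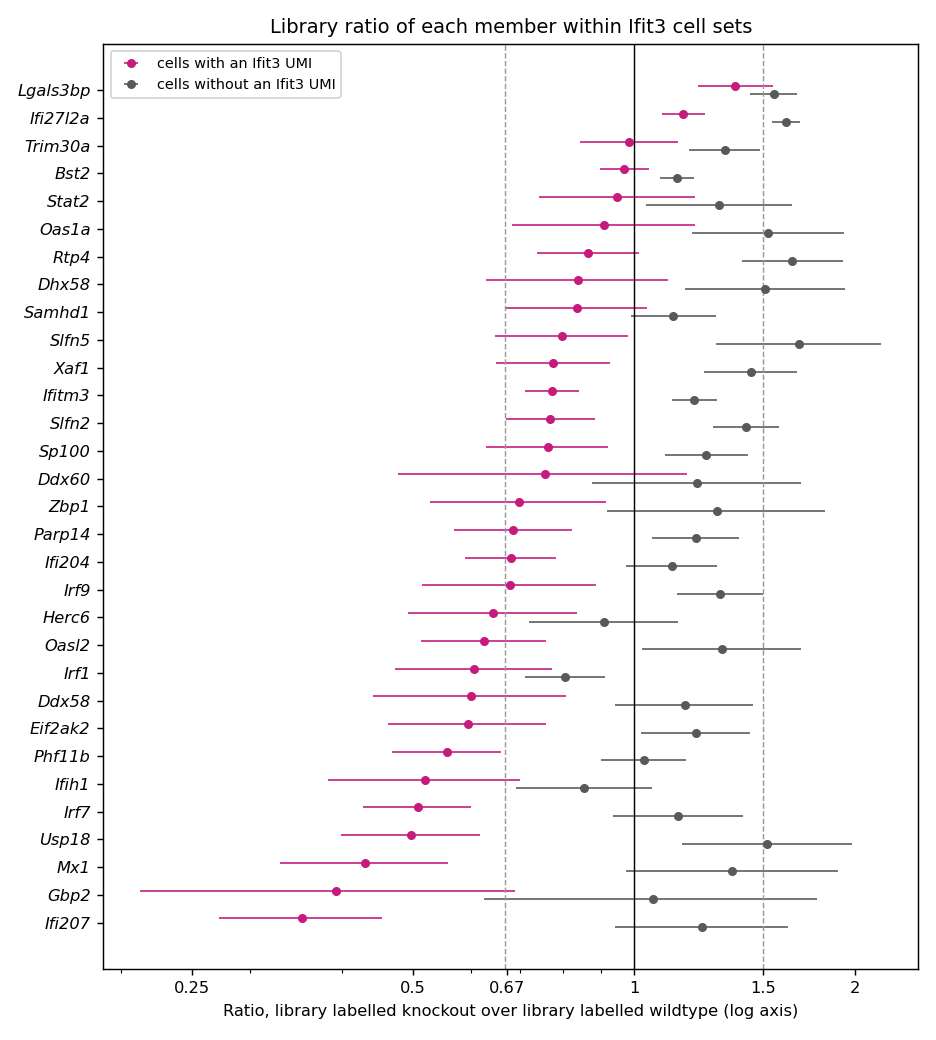
Ratio of the knockout-labelled over the wildtype-labelled library (log axis) for 31 genes within Ifit3-positive and within Ifit3-negative microglia-like cells, with 95% counting intervals. Ifi207, Gbp2 and Mx1 lie lowest among positive cells, at 0.353, 0.392 and 0.430, and most points of negative cells lie above 1.

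Cells without Ifit3 held more genes of the list under the knockout label. Thinned to 2000 UMIs, they had a UMI of 3.09 of the 33 genes on average under the wildtype label and of 3.85 under the knockout label, and 6.72% and 4.20% of them had none. Rich cells, with 6 or more of the genes, were 215 of 1697 (12.7%, interval 11.1 to 14.3) and 238 of 1000 (23.8%, 21.2 to 26.6). At 6 or at 5 genes, next to the limit, stood 235 and 204 cells. With Ifi27l2a, Lgals3bp, Bst2 and Ifitm3 left out of the count, the shares were 13.2% and 20.2%. Summed over the 33 genes, the level in all Ifit3-negative cells was 2227 CPM under the wildtype label and 2930 CPM under the knockout label. In retinal neurons and glia it was also higher under the knockout label, at 918 and 1400 CPM. Whether free RNA took part in the difference between the libraries was not tested. Rich cells were spread over the microglia-like clusters, and 5 in each library lay in the cluster led by Ifit3 and Cxcl10. Poor and rich cells had median UMI counts, before thinning, of 4196.5 and 4457 under the wildtype label and of 4714 and 4662.5 under the knockout label. Handling genes summed to 16584 and 17651 CPM in poor and rich cells under the wildtype label and to 15370 and 16398 CPM under the knockout label.

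**Figure D5:**
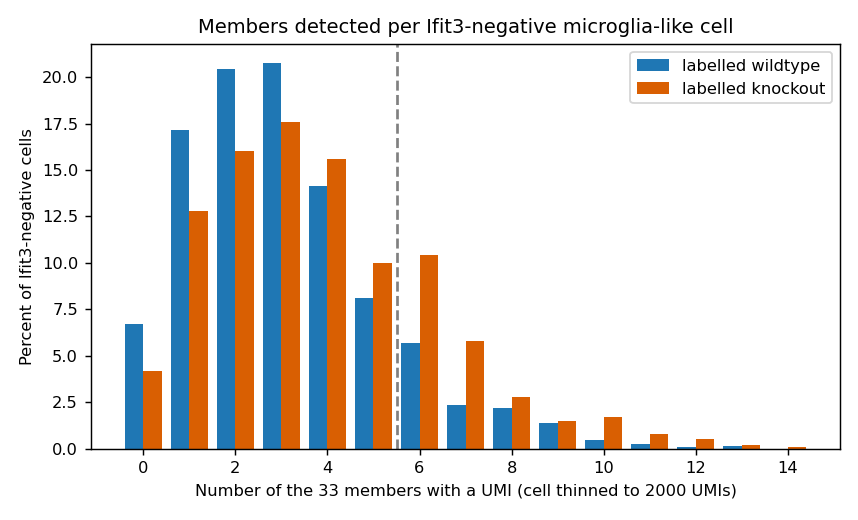
Percent of Ifit3-negative microglia-like cells (vertical) by the number of the 33 genes with a UMI after thinning to 2000 UMIs (horizontal), for each library, with a dashed line below 6 genes. Cells at 6 or more are 12.7% under the wildtype label and 23.8% under the knockout label.

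Of 38 other genes of the pathway, 24 were counted between the libraries, and 0 were higher (background 0.674%) and 0 lower (background 0.866%) by 1.5, a count near what those shares give for so few genes. The receptor genes Ifnar1 (44.6 and 45.0 CPM) and Ifnar2 (277 and 288 CPM) were among them. In the Ifit3 division 1 of 30 measured pathway genes reached 2 in both libraries (background 1.55%). In the rich cells 3 of 29 reached 1.5 in both (background 3.51%), among them Adar, the RNA-editing enzyme that limits sensing of self RNA (1.90 and 1.79), and Ifnb1, which encodes interferon beta (2.65 and 1.92). Ifnb1 had 63 counts under the wildtype label and 15 under the knockout label, and Ifna1, Ifna2 and Ifna4 had none. Adar was thus higher in rich cells of both libraries. For Ifnb1 the ratio under the knockout label rests on so few counts that the floor of 3 counts may set it. It therefore cannot show a difference in that library.

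Border macrophage-like cells (105 and 108), the macrophages of vessels and margins, were the only other class with 50 cells or more in each library. Of 30 measured genes, 5 were higher there than in microglia-like cells by a factor of 2 or more in both libraries (background 4.06%), and 0 were lower by that factor (background 3.38%). Ifi207 stood at 271 CPM against 40.4 CPM under the wildtype label (ratio 6.70, interval 5.40 to 8.26) and at 288 CPM against 27.0 CPM under the knockout label (10.7, 8.43 to 13.5). Bst2 had ratios of 4.21 and 4.35, Ifitm3 2.49 and 3.57, Zbp1 2.15 and 3.20, and Ifi204 2.29 and 2.22. Ifi207 was thus low in microglia-like cells without Ifit3 and high in border macrophage-like cells of both libraries.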

How the data were processed

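The deposited values are raw counts of UMIs per gene and cell barcode, 1 table per library, made with Cell Ranger 3.1 on mm10 per the submitters' processing notes, and the labels' protocols describe 3′ single-cell libraries of CD45-sorted retinal cells. The authors' steps between barcodes called by Cell Ranger and the deposited tables are not given in the sources used here. The tables held 2735 barcodes with 11020717 UMIs (wildtype label) and 1785 barcodes with 7945713 UMIs (knockout label), and gene symbols are those of the tables. Every value column was used.

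Of these, 40 and 24 were removed for having under 500 UMIs, under 250 genes or over 15% mitochondrial counts. Scrublet marked 0.0673% of 4456 cells, so it has not worked and doublets must be assumed to remain. Cells were clustered in scanpy 1.11.5 (2000 variable genes, 30 principal components, 15 neighbours, Leiden resolution 1), with 103 interferon genes left out, into 22 clusters. Clusters were named from fixed marker lists by a rule settled after clusters had been seen. For each class and library the summed counts were expressed as CPM, with exact Poisson, Clopper-Pearson or count-split intervals (95%) and a floor of 3 counts. A gene was counted between libraries at 20 CPM or more in 1 library, and in the divisions of cells at 20 counts or more over both. The library ratio and the division by the other genes were tested on simulated data, and the Ifit3 division was not. Shares were taken after thinning to 1000 UMIs, which leaves out shallower cells.

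The members and all lists were chosen with earlier results of these data known. Each gene is named by its role, and full values are given for the 3 most abundant, the 4 highest and 4 lowest library ratios, the 4 highest ratios of each division, those called in 1 division only and the 4 nearest to 1 in the Ifit3 division. Promoter windows were read from RefSeq (GRCm38.p6). Values of some genes on the fixed lists are not reported here.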

Additional observations from a re-analysis of the deposited data

Results flagged for a closer look

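Of the 33 genes, 10 had library ratios, knockout label over wildtype label, on opposite sides of 1 in Ifit3-positive and Ifit3-negative microglia-like cells, with a counting interval that excluded 1 in each. The difference between the 2 kinds of cell was not tested, since there was 1 library per group. The antiviral effectors among them were Oasl2 (0.625 in positive and 1.32 in negative cells) and Eif2ak2 (0.594 and 1.21). Of the signalling genes, Usp18 had 0.497 and 1.52 and Irf9 had 0.677 and 1.31. Ifitm3 had 0.772 and 1.21. Among the other induced genes, Slfn2 had 0.769 and 1.42, Slfn5 had 0.798 and 1.68, Xaf1 had 0.776 and 1.44, Parp14 had 0.684 and 1.21, and Sp100 had 0.763 and 1.25. How many of all genes had such opposite ratios was not counted. Without the cluster led by Ifit3 and Cxcl10, 3 of 30 counted genes of the list had an interval below 1 in positive cells. With that cluster they were 22 of 32. The shares of all genes with such an interval were not counted. The ratio of Irf9 between Ifit3-positive and Ifit3-negative cells was 1.80 under the wildtype label and 0.930 under the knockout label, where its interval held 1, and this difference was not tested either.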

How the results depend on the processing

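With 1 library per group, leaving out a replicate was not possible, and depth limits the sparse genes most. No paired analysis was possible because each group has 1 library. Alternatives on single clusters, on 4 abundant genes, on the mean level and on steps of Ifit3 counts were chosen after seeing the data. Where no background is given above for an alternative, the share over all genes was not counted. The count of genes higher with Ifit3 in both libraries (25) ranged from 18 to 29 and that of genes higher in rich cells without Ifit3 (25) from 20 to 27. Of the remaining values, 1132 for single genes stayed within their interval and 353 moved. Scaling by the median gene shifted log2 ratios by -0.02.

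Genes higher by 1.5 under the knockout label (2) were 1 with cells named one by one, without the Spp1-led cluster or without clusters of low UMI count, and 5 without the Ifit3-led cluster. Genes lower by that factor (0) were 1 without the Spp1-led cluster, without clusters of low UMI count, without the cell with the most counts, or with no minimum level. Genes higher in both divisions (21) were 7 with limits of 3 and 2, which left 15 between the limits (4) and 4 only with Ifit3 (2). With Ifit3 positivity at 2 UMIs there were 4 genes only with Ifit3, 2 only without it and 2 between. Thinning to 2000 UMIs gave 4 only with Ifit3 and 2 between, and thinning to 1000 gave 2 between. Rich cells taken as the upper 10% gave 1 gene only with Ifit3, and leaving out cells with any of the 6 antiviral genes gave 6. Genes higher only without Ifit3 (4) were 9 without the Ifit3-led cluster, 11 with any of the 6 genes as the marker and 7 without the positive cell with the most counts. Genes even in both (0) were 2, 1 and 1 in these 3 settings and 1 without clusters of low UMI count. Within Ifit3-positive cells, genes lower under the knockout label (13) ranged from 0 to 19: they were 19 with positivity at 2 UMIs, 8 with cells named one by one and 0 without the Ifit3-led cluster. Within Ifit3-negative cells, genes higher (7) were 3 with the 6 antiviral genes as the marker and 4 with a mean of 20 CPM over the libraries. The share of rich cells under the knockout label (23.8%) was 20.2% without the 4 abundant genes. Under the wildtype label, the rich-cell ratio of Ifih1 turned to 0.831 when thinned to 3000 UMIs, and that of Dhx58 to 0.791 without cells that held any of the 6 genes. Where the construction of the alternative does not show it, the cause was not tested.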
